A study of Mus musculus with 2 samples.

Results

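The 36 protein-coding genes of the voltage-gated sodium and calcium channels and of the hyperpolarization-activated cyclic nucleotide-gated (HCN) channels were described by their open chromatin in aged mouse cortex. Members were taken by symbol from the 21800 protein-coding genes of the GENCODE M21 annotation (Scn with a number and a or b, Cacna, Cacnb, and Hcn with a number). They were 10 sodium channel alpha subunits, 4 sodium channel beta subunits, 10 calcium channel alpha1 subunits, 4 alpha2delta subunits, 4 calcium channel beta subunits and 4 HCN subunits. The rule uses symbols only. The data were 2 DNase-seq libraries of the left cerebral cortex of male adult B6CASTF1/J mice aged 18 to 20 months, an F1 hybrid of a C57BL/6 and a CAST parent. Both libraries came from whole tissue, and the labels give no treatment, allele or second condition. The libraries are labelled biological replicates 1 and 2 and have separate tissue samples but a single donor entry, so the spread between them may be technical. With 1 group of 2 libraries no comparison of conditions could be tested. All values below are descriptions, set beside all protein-coding genes where these were counted.

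Each channel is built around a pore-forming subunit with a voltage sensor. Sodium channel alpha subunits carry the inward current of the action potential, calcium channel alpha1 subunits couple depolarization to transmitter release, gene expression and contraction, and HCN subunits form a cation channel that opens on hyperpolarization and binds cyclic AMP. Beta and alpha2delta subunits set the gating, trafficking and surface number of the pores. In cortex, neurons use several of these genes side by side, whereas others are best known from skeletal muscle, heart, retina or the sensory neurons of pain.

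DNase I cuts DNA that is not packed by nucleosomes, and a peak marks a stretch with many cuts. Replicate 1 had 73221 peaks and replicate 2 had 111105 in the main lists, so counts of weak sites were higher in replicate 2. All 8 excitatory neuron markers had a promoter peak in both libraries, as did 5 of 6 oligodendrocyte markers. Of the 7 inhibitory neuron markers 2 had one in both, and of the 6 microglia markers 1. None of the 6 skeletal muscle and none of the 6 photoreceptor markers had one in either library. In replicates 1 and 2, sensory neuron markers had one at 4 and 3 of 6, and heart muscle markers at 1 and 2 of 6. Over all protein-coding genes the share was 60.7% and 61.2%.

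A promoter peak, within 1 kb of a transcription start site (TSS) of the gene, was found at 28 of 36 channel genes in replicate 1, against 60.7% of all protein-coding genes, and at 26 of 36 in replicate 2, against 61.2%. As shares, these were 77.8% and 72.2% of the channel genes. The same 25 genes had one in both libraries, 7 had none in either, 3 had one in replicate 1 only and 1 in replicate 2 only. The channel genes were longer than most, with a median of 111 kb against 17.4 kb over all genes. Among genes of 100 kb or more, 17 of 20 channel genes had a promoter peak in each library (85.0%), against 83.8% and 84.4% of the 2476 genes of that length, so at this length the share was near the background. Among shorter genes 11 of 16 had one in replicate 1 (68.75% against 57.7%) and 9 of 16 in replicate 2 (56.25% against 58.2%). In whole tissue, fewer nuclei of a cell type and a less open site in each nucleus cannot be told apart.

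Where a promoter peak was present, it was weaker than at most genes. The deposited signal is the authors' value for each peak, on a scale that is not stated, and the strongest promoter peak of each gene was used. It was taken in each library on its own, so the values of a gene can come from different peaks or starts. The median of this strongest signal over the channel genes with a peak was 1.77 in replicate 1 and 1.63 in replicate 2 (mean 1.70 ± 0.0966, SD, n = 2). Over all genes with a peak it was 3.82 and 2.88. The channel median stood at the 21.8th percentile of all genes in replicate 1 and at the 27.6th in replicate 2. In replicate 1, 27 of the 28 channel genes lay below the median of all genes, and in replicate 2, 21 of 26. Genes of 100 kb or more had lower promoter signals in general, with a channel median of 1.62 and 1.57 against 2.52 and 1.96 over all genes of that length.

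**Figure D1:**
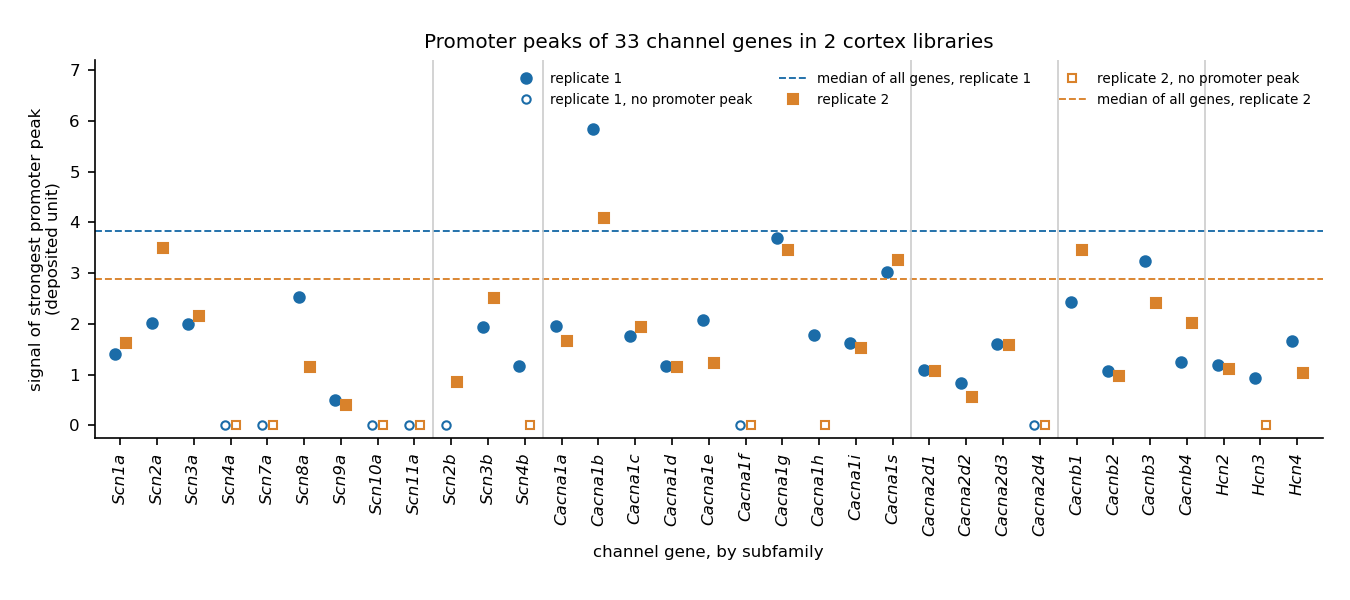
Signal of the strongest promoter peak (vertical axis, deposited unit) of 33 of the 36 channel genes, by subfamily, with circles for replicate 1 and squares for replicate 2. Open symbols at 0 stand for no promoter peak and dashed lines for the medians of all genes with a peak, 3.82 and 2.88, and only Cacna1b lies above both lines in its own library.

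Of the 10 sodium channel alpha subunits, 5 had a promoter peak in both libraries, namely Scn1a, Scn2a, Scn3a, Scn8a and Scn9a. Scn2a, which encodes a main sodium channel of excitatory cortical axons, had the highest mean of the group over the strongest peaks of each library. Its strongest peak was 2.02 in replicate 1, at the first start, and 3.50 in replicate 2, at a start 48.0 kb downstream. The first start had 2.02 and 2.04, and the downstream one 1.60 and 3.50. Scn8a, the channel concentrated at the axon initial segment and nodes of Ranvier of adult neurons, had 2.52 and 1.15, above Scn2a in replicate 1 and below it in replicate 2. Scn3a, best known from the embryonic rodent brain, had 1.99 and 2.16, and so was not lower than Scn8a beyond the spread between the libraries. Scn1a, the channel of fast-spiking inhibitory neurons, had 1.41 and 1.61. Scn9a, best known from pain-sensing neurons, had the weakest promoter peak of all channel genes with one in both libraries, at 0.508 and 0.407, at percentiles 0.900 and 1.61 of all genes with a peak. With both lists held to equal numbers of peaks, Scn9a had no promoter peak in replicate 2.

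Alpha subunits without a promoter peak in either library included Scn4a (the channel of skeletal muscle), Scn7a (a sodium-level sensor that is not opened by voltage), and Scn10a and Scn11a (channels of sensory neurons). Scn4a, Scn10a and Scn11a had no promoter peak in the longer lists and no base with a listed false discovery rate (q-value of at most 0.05 in the authors' deposited per-base list) within 1 kb of a TSS. Scn7a had listed bases, with a lowest q-value of 0.0328 in replicate 1 and 0.0472 in replicate 2, and no peak in either list. Over all genes without a promoter peak, 13.2% had a listed base in replicate 1 and 15.2% in replicate 2, against 2 of the 8 channel genes without one in replicate 1 and 4 of 10 in replicate 2.

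Sequences of an open and a closed sodium channel start are set side by side because these were the contrasting states within the subfamily. The open one is the Scn2a promoter peak with the highest mean signal of those shared by both libraries, chr2:65668481-65668640 in mm10, which lies in an intron 125 bp before an internal Scn2a TSS and had a signal of 1.60 in replicate 1 and 3.50 in replicate 2. Capitals mark the bases inside footprints of replicate 1, which are short stretches protected from cutting within a peak. The closed one is the 250 bases before the Scn11a TSS, chr9:119825457-119825706 on the minus strand, from RefSeq's promoter table for GRCm38.p6. It held no peak, and it is written without capitals because footprints were not looked up in it. Both are written on the strand of the gene.
Scn2a promoter peak: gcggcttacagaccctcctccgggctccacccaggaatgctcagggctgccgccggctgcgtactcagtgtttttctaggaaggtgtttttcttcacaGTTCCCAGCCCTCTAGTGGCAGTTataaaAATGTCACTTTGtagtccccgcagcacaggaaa
Scn11a promoter: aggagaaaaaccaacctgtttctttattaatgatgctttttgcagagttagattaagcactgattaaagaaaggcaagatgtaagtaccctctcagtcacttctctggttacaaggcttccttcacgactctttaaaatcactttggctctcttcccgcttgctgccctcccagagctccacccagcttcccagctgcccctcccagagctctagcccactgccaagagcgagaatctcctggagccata

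The sodium channel beta subunits are small membrane proteins with an immunoglobulin fold that bind the alpha subunits and act in cell adhesion. Scn3b had a promoter peak of 1.94 in replicate 1 and 2.52 in replicate 2. Scn2b and Scn4b each had a peak in the main list of 1 library and in the longer lists of both. Scn4b, whose tail blocks the open pore and gives resurgent current, had a peak of 1.16 in replicate 1 and none in replicate 2, where the longer list held one of 0.928. Scn2b had a peak of 0.854 in replicate 2 and none in replicate 1, where the longer list held one of 0.680.

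Among the alpha1 subunits of the calcium channels, 9 of 10 had a promoter peak in replicate 1 and 8 of 10 in replicate 2. Cacna1b, the pore of the N-type channel of presynaptic terminals, had the strongest promoter peak of all 36 genes, with 5.84 in replicate 1 and 4.09 in replicate 2, at the 75.8th percentile of all genes with a peak in replicate 1 and at the 66.7th in replicate 2. Cacna1a, the P/Q-type pore that works beside it in transmitter release, had 1.97 and 1.65, and with a promoter window of 500 bp it had no peak in replicate 2. The values of Cacna1b were thus higher than those of its presynaptic companion in both libraries and did not overlap them.

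Cacna1g, a T-type pore that opens near the resting potential, was next with 3.70 in replicate 1 and 3.45 in replicate 2. Its T-type relatives were lower. Cacna1i had 1.62 and 1.51, and Cacna1h had 1.78 in replicate 1 and no peak in replicate 2, where the longer list held one of 0.821. The L-type pores of neurons, Cacna1c and Cacna1d, had 1.76 and 1.94 for Cacna1c, and 1.16 and 1.15 for Cacna1d. Cacna1e, the R-type pore, had 2.07 and 1.23. Cacna1f, the L-type pore of the retina, had no promoter peak in either list of either library and no listed base.

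Cacna1s, the L-type pore and voltage sensor of skeletal muscle, was counted with a promoter peak of 3.03 in replicate 1 and 3.25 in replicate 2. That peak lay 757 bp from the TSS of the neighbouring gene Ascl5, which was nearer, and its centre lay 1.09 kb before the Cacna1s TSS. With a promoter window of 500 bp, or with peaks counted only for the nearest protein-coding TSS, Cacna1s had no promoter peak.

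The strongest Cacna1b promoter peak, chr2:24763141-24763360 in mm10, spans the TSS of the gene on the minus strand. It is shown as the most open promoter among the channel genes, written on the strand of the gene with capitals for bases inside footprints of replicate 1. The peak has 72.7% G and C.
Cacna1b promoter peak: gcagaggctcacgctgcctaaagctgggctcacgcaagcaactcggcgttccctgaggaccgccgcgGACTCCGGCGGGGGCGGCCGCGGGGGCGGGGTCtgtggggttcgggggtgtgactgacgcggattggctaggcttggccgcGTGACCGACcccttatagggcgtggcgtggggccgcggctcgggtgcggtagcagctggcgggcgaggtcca

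The alpha2delta subunits are extracellular proteins that raise the surface number of calcium channels, and Cacna2d1 and Cacna2d2 bind gabapentin. Of the 4, Cacna2d3 had the highest promoter signal, with 1.61 in replicate 1 and 1.57 in replicate 2. These values came from starts 752 kb apart. The first start had 1.61 and 1.01, and the downstream one 1.02 and 1.57. Cacna2d1 had 1.09 and 1.06, and Cacna2d2 had 0.831 and 0.567, of which the peak of replicate 2 was lost with equal numbers of peaks. Cacna2d4, the subunit of photoreceptor terminals, had no promoter peak, and gained one in both libraries when the TSS of all annotated transcripts were used.

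All 4 intracellular beta subunits, which bind the alpha1 pore and bring it to the membrane, had a promoter peak in both libraries. Cacnb1, the beta subunit of skeletal muscle that is also made in brain, had 2.43 in replicate 1 and 3.46 in replicate 2, and no promoter peak in replicate 1 with a window of 500 bp. Cacnb3 had 3.24 and 2.41, Cacnb4 had 1.24 and 2.01, and Cacnb2 had 1.07 and 0.974. The Cacnb2 values came from different starts. Its first start had 1.07 and 0.948, and those 269 kb and 270 kb downstream had 0.812 and 0.974. Cacnb1 and Cacnb3 changed order between the libraries, and Cacnb2 was the lowest in both.

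All 4 HCN genes had a promoter peak in replicate 1 and 3 in replicate 2. Hcn4, the pacemaker subunit of the sinoatrial node, had 1.66 and 1.03, and Hcn2, the subunit found widely in brain and strongly in thalamus, had 1.19 and 1.10. Hcn3 had 0.937 in replicate 1 and no peak in replicate 2, where the longer list held one of 0.514. The values of Hcn4 and Hcn2 lay above those of Hcn3 in replicate 1, and in replicate 2 they differed from each other by less than their spread between the libraries.

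Promoter peaks of accessory subunits and of Hcn4 are printed to show how unlike they are in base composition, on the strand of each gene and with capitals for bases inside footprints of replicate 1. The Cacna2d3 stretch, chr14:28969472-28969580 on the minus strand, is the part of the peak before an internal TSS, has 45.9% G and C and belongs to a peak of 1.02 in replicate 1 and 1.57 in replicate 2. Cacnb1, chr11:98019328-98019530 on the minus strand, lies 956 bp before an internal TSS and has 65.5%. Hcn4, chr9:58822821-58823020 on the plus strand, lies 392 bp before the TSS and has 72.0%.
Cacna2d3 promoter peak: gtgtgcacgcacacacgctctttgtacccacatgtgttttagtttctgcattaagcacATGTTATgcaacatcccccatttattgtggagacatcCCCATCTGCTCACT
Cacnb1 promoter peak: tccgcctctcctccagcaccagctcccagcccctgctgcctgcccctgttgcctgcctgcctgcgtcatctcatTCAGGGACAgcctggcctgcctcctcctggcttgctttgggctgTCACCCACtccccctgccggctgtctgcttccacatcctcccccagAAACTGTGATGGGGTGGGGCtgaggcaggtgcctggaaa
Hcn4 promoter peak: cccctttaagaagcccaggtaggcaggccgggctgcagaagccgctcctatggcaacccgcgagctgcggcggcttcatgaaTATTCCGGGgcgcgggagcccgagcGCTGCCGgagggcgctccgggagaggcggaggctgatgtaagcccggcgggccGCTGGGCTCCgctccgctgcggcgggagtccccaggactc

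Several channel genes start at more than 1 place, and in some of them a start was open while another was closed. TSS within 500 bp of each other were joined, which gave 58 start site clusters, and 14 genes had several, with 36 clusters in all. Of those 36, 21 had a peak in both libraries (58.3%), against 37.8% of the 12000 clusters of all 5360 genes with several. In Cacna1c, Cacna1d and Cacna1e the first cluster had no peak in either library, while a cluster farther in did. The open cluster lay 87.8 kb downstream in Cacna1c (1.85 ± 0.127), 138 kb downstream in Cacna1d (1.16 ± 0.00479) and 138 kb downstream in Cacna1e (1.65 ± 0.597, all SD, n = 2). Cluster values take the strongest peak of each library, which can be different peaks, so the SD is not always that of a single site. In this Cacna1c cluster the overlapping peaks had 1.76 and 0.934, and 1.56 and 1.94. Cacna1c had further open clusters 116 kb and 416 kb in, at 0.846 ± 0.0302 and 1.04 ± 0.0292.

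Scn8a showed the opposite arrangement, with an open first cluster (1.83 ± 0.971) and none at the clusters 62.7 kb and 65.6 kb downstream. Scn1a was open at its first cluster (0.843 ± 0.110) and, with more signal, at the cluster 30.8 kb downstream (1.51 ± 0.148), and had no peak at the one 89.6 kb downstream. All 3 clusters of Scn2a were open, with 2.03 ± 0.0116 at the first, 2.55 ± 1.34 at the one 48.0 kb downstream and 1.02 ± 0.172 at the one 49.7 kb downstream. At the middle cluster the replicates differed most, with 1.60 and 3.50, so its rank above the first held in replicate 2 and not in replicate 1. Cacnb4 was open at both of its starts, 118 kb apart, at 1.31 ± 0.198 and 1.62 ± 0.543, and Cacna2d3 at both of its starts, 752 kb apart, at 1.31 ± 0.421 and 1.30 ± 0.390.

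**Figure D2:**
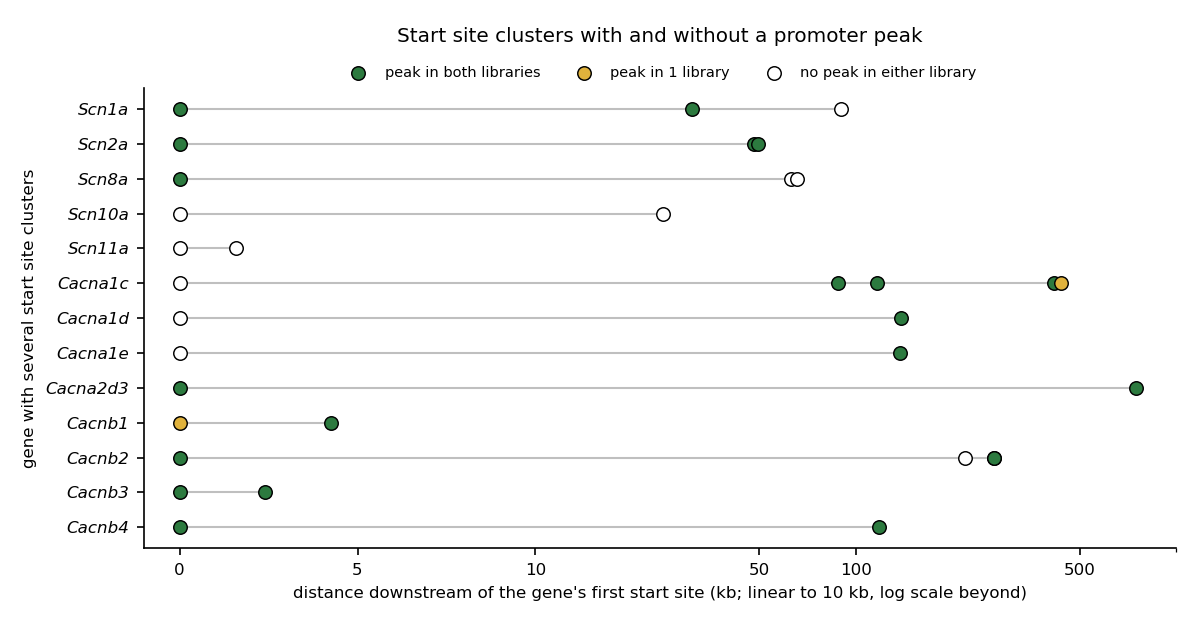
Start site clusters of 13 of the 14 channel genes with several, placed by distance downstream of the first TSS of the gene (horizontal axis in kb, linear to 10 kb and logarithmic beyond). Filled circles had a promoter peak in both libraries or in 1, and open circles in neither. Cacna1c, Cacna1d and Cacna1e are closed at 0 kb and open farther in, and Scn8a is open at 0 kb only.

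Open and closed starts differed in CpG content. The observed over expected CpG ratio, counted within 500 bp of the cluster, had a median of 0.611 over the 35 clusters open in both libraries, against 0.285 over the 17 open in neither. Over the clusters of all genes the medians were 0.727 for those open in both and 0.190 for those open in neither, so the same split was seen there and was wider. At a ratio of 0.6 or more, 18 of 23 channel clusters were open in both (78.3%), against 89.8% of all clusters, and 1 in neither. Below 0.4, 12 of 28 were open in both (42.9%), against 11.5% of all clusters, and 14 in neither. The 12 included starts of Scn1a, Scn2a, Scn3a and Cacnb4, so a low ratio did not go with a closed start in every gene. Also among the 12 were Cacna1s, whose peak was nearer to Ascl5, and Cacnb2 clusters 3 and 4, which had the same peak signals. Clusters of the same gene share its locus and are not independent.

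Distal peaks, more than 1 kb from every annotated TSS and within the gene or 10 kb of it, were found at 34 of 36 channel genes in replicate 1, against 58.3% of all genes, and at all 36 in replicate 2, against 67.5%. Among genes of 100 kb or more the shares were near the background, at 19 of 20 channel genes in replicate 1 (95.0%) against 92.9% of all genes of that length, and at all 20 in replicate 2 against 97.4%. Among shorter genes they were above it, at 15 of 16 in replicate 1 (93.75% against 53.9%) and all 16 in replicate 2 against 63.6%. The windows of the 36 genes held 220 distal peaks in replicate 1 and 364 in replicate 2. Most lay in introns, 176 and 311, with 17 and 21 in coding exons and 23 and 29 outside the gene. Hcn3 and Scn7a had none in replicate 1 and 1 each in replicate 2.

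Per length, the median density of distal peaks over the channel genes was 3.58 per 100 kb of window (replicate 1) and 5.59 (replicate 2), with a mean of 4.58 ± 1.42 (SD, n = 2), against 1.73 and 3.18 over all genes. Of the 36, 26 lay above the median of all genes in replicate 1 and 27 in replicate 2. Among genes of 100 kb or more the medians were closer, at 2.63 and 5.01 for the 20 channel genes against 2.01 and 3.96 for all. Among shorter genes they were 5.31 and 7.05 for the 16 channel genes against 1.62 and 3.02 for all. Across the 36 genes, the number of distal peaks followed gene length (Spearman's rho 0.631 and 0.805) and the density did not rise with it (rho -0.317 and -0.210). Over all genes these rho values were 0.481 and 0.585 for the number and 0.161 and 0.214 for the density.

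Cacna1g had the densest distal peaks, with 13.98 per 100 kb in replicate 1 and 17.48 in replicate 2, from 12 and 15 peaks. Its mean of 15.7 moved to 9.35 with a 50 kb flank, where Cacnb1 had 13.6, and to 8.74 when each peak went only to the nearest start (3.50 in replicate 1), where Scn2b had 10.8. Without a flank Cacna1g had 16.7 and Scn2b 20.3, so the first rank of Cacna1g holds for the 10 kb flank and not for these settings. In the main setting Scn2b followed with 9.29 and 12.4, from 3 and 4 peaks in a window of a gene of 12.3 kb. Hcn2 had 12.7 and 7.60, Cacnb1 had 9.63 in both libraries and Cacna1a had 5.89 and 10.3. Hcn2, Cacnb1 and Scn2b are short genes, and their densities rest on 3 to 5 peaks each. With the nearest start only, the mean fell to 2.41 for Cacnb1, 6.33 for Hcn2 and 4.41 for Cacna1a, and with a 50 kb flank to 5.34 for Scn2b and 6.70 for Hcn2. Others among the 10 densest were Cacna1s (8.04 ± 0), Scn8a (6.88 ± 1.08) and Cacna1i (6.49 ± 0.540), again per 100 kb with SD and n = 2. By number, Cacna1c had the most distal peaks, with 23 in replicate 1 and 48 in replicate 2, and Cacna1e had 18 and 37.

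At the other end, Scn7a had a mean density of 0.380 ± 0.538 per 100 kb and Scn1a had 1.32 ± 1.12. Scn3a and Scn2a lie close together on chromosome 2, and Scn1a, Scn9a and Scn7a lie farther along it. In replicate 1 none of these 5 reached the median density of all genes, with values of 0 to 1.53 against 1.73. Scn8a on chromosome 15 had 6.12 in replicate 1 and 7.65 in replicate 2, above all 5 in both libraries. In replicate 2 the 5 genes had 0.761 to 3.83, and only Scn3a was above the median of 3.18.

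**Figure D3:**
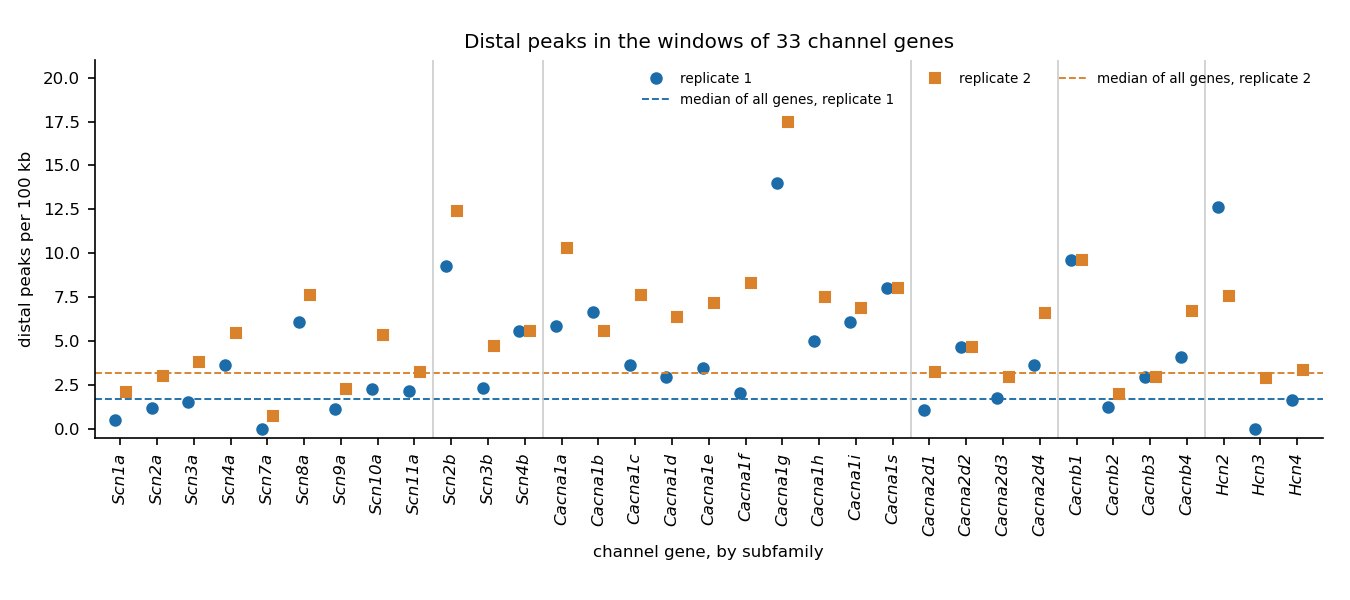
Distal peaks per 100 kb (vertical axis) in the gene body and 10 kb on each side for 33 of the 36 channel genes, with circles for replicate 1 and squares for replicate 2. Dashed lines are the medians of all genes, 1.73 and 3.18, and Cacna1g is highest in both libraries.

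Of the distal peaks, 182 of 220 in replicate 1 (82.7%) and 183 of 364 in replicate 2 (50.3%) had a counterpart in the other library, close to the 86.9% and 49.1% of all distal peaks. Of the promoter peaks, 55 of 72 (76.4%) and 50 of 70 (71.4%) were shared, against 83.6% and 80.8% of promoter peaks of all genes. Over peaks that overlapped one to one, the log2 signals of replicates 1 and 2 had a Pearson r of 0.807 over 48 promoter peaks and of 0.654 over 180 distal peaks. Over all genes r was 0.920 and 0.700. These are descriptions over peaks, which share their library. Within a factor of 2 lay 45 of the 48 promoter pairs (93.8%) and 154 of the 180 distal pairs (85.6%).

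**Figure D4:**
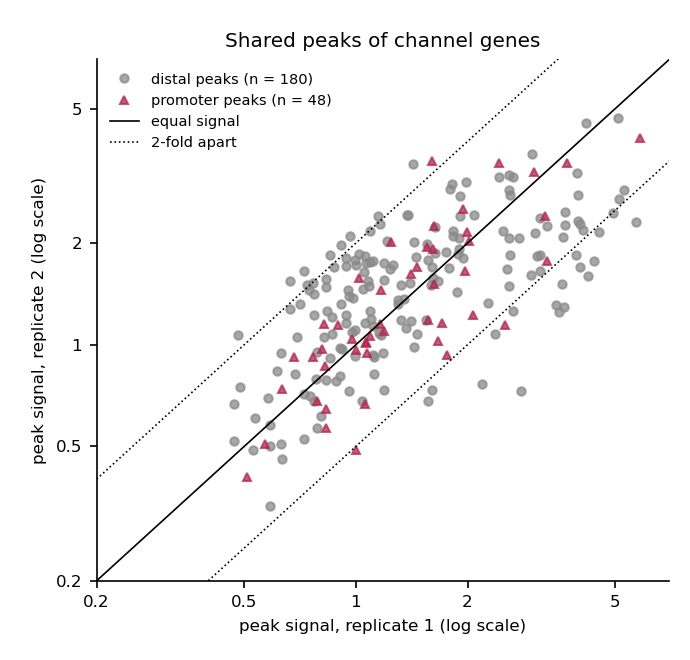
Signal of peaks of the channel genes that overlapped one to one, in replicate 1 (horizontal axis) and replicate 2 (vertical axis), both logarithmic, with triangles for 48 promoter peaks and circles for 180 distal peaks. The solid line is equal signal and the dotted lines mark a factor of 2, between which 93.8% of promoter and 85.6% of distal pairs lie.

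The 182 shared distal peaks had a median of 1.41 for the mean signal of both libraries, and 63 of them stood above the strongest promoter peak of their gene, counted where it had one in both libraries. In 17 of the 25 genes with a promoter peak in both libraries (68.0%) the strongest shared distal peak had a higher mean signal than the strongest promoter peak, against 31.7% of the 8501 genes with a promoter peak in both libraries and a shared distal peak. A longer gene offers more distal peaks to choose from, and among genes of 100 kb or more this held in 12 of 17 channel genes (70.6%), against 46.5% of 1884 genes. In 14 of the 25 it held in each library, against 25.2% of all. The strongest of the 182 lay in an intron of Scn8a, 9.71 kb from the nearest TSS, with 5.10 in replicate 1 and 4.69 in replicate 2, whereas the Scn8a promoter had 2.52 and 1.15. The second lay in an intron of Cacna1a, 79.4 kb from the nearest TSS, with 4.18 and 4.54, against 1.97 and 1.65 at the Cacna1a promoter. In both genes the intronic peak was above the promoter peak in each library.

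The next lay in introns close to internal starts. In Cacna1e the peak 3.33 kb from the nearest TSS had 5.30 in replicate 1 and 2.87 in replicate 2, and in Cacna1c the peak 3.42 kb away had 5.69 and 2.30. These differed between libraries by more than the first pair did. A further Cacna1e intron peak, 64.2 kb from the nearest TSS, had 2.99 and 3.67, and a Cacnb4 intron peak, 32.4 kb away, had 3.97 and 2.78.

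The other 4 of the 10 strongest were nearer to the TSS of another gene. They lay beyond the end of Cacna1g nearest to Abcc3 (5.12 and 2.70), in a coding exon of Cacna2d2 nearest to Tmem115 (4.93 and 2.46), in an intron of Cacna1d nearest to Chdh (3.95 and 3.22) and in an intron of Cacna2d4 nearest to Lrtm2 (4.53 and 2.16). In all, 127 of the 182 shared distal peaks had a channel gene as the nearest protein-coding start, so a peak in a gene's window is not thereby assigned to that gene. In the remaining 8 of the 25 genes the promoter stood above every shared distal peak by mean signal. They included Scn1a, Scn2a, Scn3a, Scn3b, Cacna1b and Cacnb3. In Scn1a the highest shared distal mean was 0.969 against 1.51 at the promoter. In Scn2a it was 1.93 against 2.76. That 2.76 is the mean of the strongest promoter peaks of each library, which lay at different starts with means of 2.03 and 2.55.

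**Figure D5:**
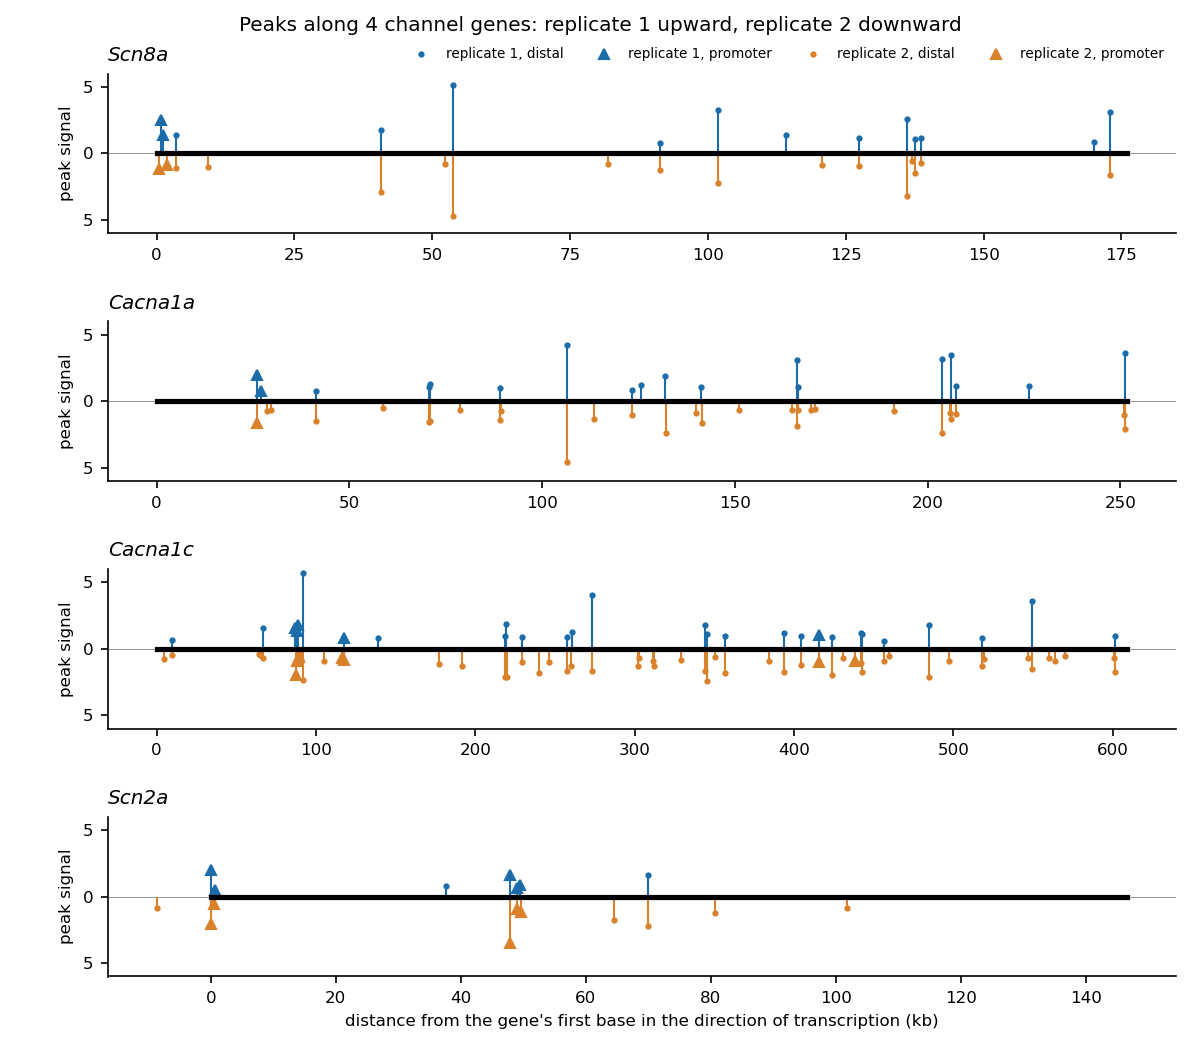
Peaks along Scn8a, Cacna1a, Cacna1c and Scn2a by distance from the first base of the gene (horizontal axes in kb; the black bar is the gene), with the signal of replicate 1 drawn upward and of replicate 2 downward. Triangles are promoter peaks and dots distal peaks, and the highest bars of Scn8a and Cacna1a in both libraries are intronic distal peaks.

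The Scn8a intronic peak, chr15:100923501-100923720 in mm10 on the plus strand of the gene, is printed as the strongest shared distal element of the channel genes. Capitals mark bases inside the 4 footprints of replicate 1.
Scn8a distal peak: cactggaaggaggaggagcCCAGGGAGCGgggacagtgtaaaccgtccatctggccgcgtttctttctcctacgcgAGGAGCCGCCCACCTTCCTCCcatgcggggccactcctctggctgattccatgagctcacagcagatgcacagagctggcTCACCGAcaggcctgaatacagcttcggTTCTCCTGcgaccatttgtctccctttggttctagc

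Channel promoter peaks held 172 footprints in replicate 1 and 184 in replicate 2, with a median of 2 per peak. In distal peaks there were 533 and 894, again with a median of 2. Of the 72 and 70 promoter peaks, 59 and 53 held a footprint, and of the 220 and 364 distal peaks, 206 and 329. Footprints were not counted over the peaks of all genes, so these numbers have no background and show no difference from other peaks.

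The letters of known binding motifs were counted on both strands of the peaks. Matches inside footprints were counted for channel peaks only, so those counts have no background share. The SP/KLF, ETS, NRF1 and EGR letters were less common in channel promoters than in promoter peaks of all genes. The SP/KLF box GGGCGG was in 33 of 72 channel promoter peaks in replicate 1 (45.8%, against 54.5% of all promoter peaks) and in 23 of 70 in replicate 2 (32.9% against 49.9%). The ETS letters CCGGAAG were in none of the 72 and none of the 70, against 11.5% and 11.3% of all promoter peaks. The NRF1 letters GCGCATGCG were in none in either library, against 2.54% and 2.34%. The EGR letters GTGGGCG were in 1 of 72 and 0 of 70, against 12.2% and 11.8%. An EGR or CTCF match can share bases with an SP/KLF match. The AP-1 letters TGANTCA had higher shares, in 6.94% and 5.71% of channel promoter peaks against 3.63% and 5.25% of all. So had the E-box CAGATG (11.1% and 14.3% against 8.55% and 11.2%) and the RFX letters GTTGCCA (4.17% and 4.29% against 3.16% and 3.66%). The MEF2 letters TAAAAATA were in 2 of 72 and 1 of 70 (2.78% and 1.43% against 0.396% and 0.963%). The CRE letters TGACGTCA were in 1.39% and 1.43% against 2.49% and 2.48%.

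In distal peaks the EGR letters were in 17 of 220 (7.73%, against 4.05% of all distal peaks) in replicate 1 and in 24 of 364 (6.59% against 3.50%) in replicate 2. Of these matches 11 of 17 and 19 of 24 lay in footprints. The AP-1 letters TGANTCA were in 16.8% and 23.6% of channel distal peaks, against 12.3% and 18.3% of all, and 2 of 45 and 31 of 107 of these matches lay in footprints. The RFX letters GTTGCCA were in 8.18% and 6.04%, against 4.13% and 4.89%. The E-box CAGATG was in 17.3% and 25.3%, against 22.2% and 25.8%. EGR and AP-1 are families of factors induced by neuronal activity. In the remaining motifs searched, the CRE letters TGACGTCA were in 1.36% and 1.10% of channel distal peaks against 0.522% and 0.435%, from 3 and 4 peaks. The MEF2 letters TAAAAATA were in 0.909% and 3.85% against 1.72% and 3.47%. The NFI letters, TTGGC and GCCAA spaced by 5 bases, were in no channel peak. They were rare everywhere, in 0.0222% and 0.0347% of all promoter peaks and in 0.0815% and 0.0679% of all distal peaks. The YY1 letters AAGATGGCG were in 1 channel promoter peak of replicate 1 and in no other channel peak. Their shares were 2.23% and 2.03% of all promoter peaks and 0.332% and 0.220% of all distal peaks.

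The core letters of CTCF, the factor at loop anchors, AGGGGGCG, were in 7 channel distal peaks of replicate 1 (3.18% against 3.74% of all distal peaks) and in 4 of replicate 2 (1.10% against 1.97%). All 8 distal matches of replicate 1 and all 4 of replicate 2 lay in footprints. In promoter peaks the letters were in 5 of 72 (6.94% against 9.67% of all promoter peaks) and in 1 of 70 (1.43% against 8.68%). Of the promoter matches, 3 of 6 in replicate 1 and 1 of 1 in replicate 2 lay in footprints. Of the sites with a footprint in both libraries, those of Cacna1i, Cacna2d2 and Scn8a are printed on the plus strand, with the letters (or their reverse complement) in capitals. They are at chr15:80289594-80289633 in Cacna1i (peak signal 2.75 in replicate 1 and 2.08 in replicate 2), chr9:107463692-107463731 in Cacna2d2 (3.64 and 1.29), and, in a promoter peak, at chr15:100870607-100870646 of Scn8a (2.52 and 1.15).
Cacna1i CTCF distal: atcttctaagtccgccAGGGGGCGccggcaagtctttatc
Cacna2d2 CTCF distal: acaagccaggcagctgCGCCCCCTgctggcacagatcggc
Scn8a CTCF promoter: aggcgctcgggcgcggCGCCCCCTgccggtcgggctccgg

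REST is a repressor of neuronal genes in other cells, and sodium channel genes are among its known targets. Its letters were searched as CAGCACC and GGACAG spaced by 2 bases. With up to 2 mismatches they were in 3 of 72 channel promoter peaks of replicate 1 (4.17% against 2.14% of all promoter peaks) and in 3 of 70 of replicate 2 (4.29% against 2.15%). In distal peaks they were near the background, in 2 of 220 of replicate 1 (0.909% against 1.34% of all distal peaks). In replicate 2 they were in 5 of 364 distal peaks (1.37% against 1.19%). Without mismatch they were within 1 kb of the first TSS of 3 of the 36 channel genes (8.33%), against 54 of 21800 genes (0.248%). These 3 genes were Hcn3, Scn2a and Scn3b. At Scn2a and Scn3b the letters lay outside the peaks of both lists, although both promoters had peaks elsewhere within 1 kb, and at Hcn3 they lay in a peak of 0.447 of the longer list of replicate 2 alone.

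In the gene windows, 42 matches with at most 1 mismatch were found at 21 channel genes, 12 of them exact. The channel windows are longer than most, and per length there were 6.10 such matches per Mb of window, 1.74 of them exact, against 3.79 and 0.367 over the windows of all genes, each gene's window counted on its own. Among genes of 100 kb or more the rates were 5.52 per Mb with 1.17 exact for the channel genes, against 3.17 and 0.291 for all. A main peak covered 3 of the 42 in replicate 1 and 2 in replicate 2. The exact match of Cacna1b was inside a promoter peak of 1.62 in replicate 1 and 2.24 in replicate 2, and in a footprint in replicate 1 only. Exact matches in Cacna1h, Cacna1i, Cacna1a, Cacna2d3 and Scn10a were in no peak of either list, and that of Hcn4 was in a peak of 0.475 of the longer list of replicate 1 alone. The exact match in the Cacna1f window was in a peak of 3.36 and 1.90 that is not a promoter or distal peak of the gene. The searches of whole windows and of the 1 kb around the first TSS, and these rates, were added after the peaks had been seen. The printed sites are the match within 1 kb of the first Scn2a TSS, at chr2:65619954-65619992, and, among the matches found in peaks of both libraries, those at chr2:24762073-24762111 in Cacna1b, chr2:66409458-66409496 in Scn1a and chr14:30318553-30318591 in Cacna1d, written on the strand of each gene with the letters (or their reverse complement) in capitals. The Scn1a and Cacna1d matches have 2 mismatches and the other printed ones none.
Scn2a REST window: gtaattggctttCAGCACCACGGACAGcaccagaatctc
Cacna1b REST promoter: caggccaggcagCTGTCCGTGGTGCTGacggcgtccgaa
Scn1a REST promoter: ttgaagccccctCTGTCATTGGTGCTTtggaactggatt
Cacna1d REST distal: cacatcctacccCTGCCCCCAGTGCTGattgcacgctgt

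A list of 41 partner, regulator and related channel genes, among them those of the separate sodium leak and sperm channels, was set beside the 36. Of the 41, 31 had a promoter peak in replicate 1 (75.6%) and 30 in replicate 2 (73.2%), against 60.7% and 61.2% of all genes. The strongest by mean signal were Calm3, a calmodulin gene (8.88 in replicate 1 and 6.15 in replicate 2), Kctd3, a partner of HCN channels (9.53 and 5.17), and Calm2 (8.29 and 5.15). Each of these was above all 36 channel genes in each library. Sptbn4, the spectrin of the axon initial segment, had 4.98 in replicate 1 and 7.29 in replicate 2, the highest of the list in replicate 2. All 4 genes of the axon initial segment scaffold (Ank3, Sptbn4, Nfasc and Nrcam) had a peak in both libraries, as did all 4 genes of the sodium leak channel complex and all 3 presynaptic anchors. Those with none in either library were Cacng1, Cacng4, Cacng5 and Cacng6 of the gamma subunits, the adaptor Stac3, the sperm channel genes Catsper1, Catsper3 and Catsper4, and the inhibitors Rem1 and Rrad. Fgf11 had a peak of 1.51 in replicate 1 only.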

How the data were processed

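DNase-seq peaks, footprints and per-base false discovery rates on mm10 were deposited by the authors for each library on its own, per the file headers and notes. The deposited signal is 1 value per peak on a scale that is not stated. The q-values (per-base, listed up to 0.05) were also deposited, and the footprint score was constant and not used. For the aligner, the callers and their versions, nothing is given in the sources used here. Reads of a hybrid were set on a C57BL/6J reference, and read totals were not used, so the number of calls is the only measure of depth.

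Of the 2 peak lists per library, the shorter was the main one and the longer an alternative. Peaks were assigned to GENCODE M21 basic genes with pysam 0.24.0, pandas 2.3.3, scipy 1.17.1 and numpy 2.4.6 under python 3.11.15, and figures were drawn with matplotlib 3.10.9. A promoter peak overlapped 1 kb on either side of a TSS of a protein-coding transcript, and a peak was shared with an overlap of at least 1 bp. The assignment was tested on simulated peaks. Replicates are given one by one and as mean and SD, with no p-value. Sequences came from GRCm38.p6 and RefSeq's promoter table, in which 26 of 36 channel genes were matched. Those without an entry include Cacna1a, Cacna1g, Cacna1h, Cacna2d4, Hcn3, Scn3a and Scn3b.

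The members, gene lists and motifs were chosen with earlier results of these data known. The counts cover all members, and values of 3 of them are not reported here. The rule for named genes took all members, the 10 densest for distal peaks, the 10 strongest shared distal peaks, and the 3 strongest partner genes and those with none. Astrocyte (2 and 3 of 6) and endothelium markers (2 and 1 of 5) with a promoter peak in replicates 1 and 2 complete the marker lists.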

Additional observations from a re-analysis of the deposited data

How the results depend on the processing

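The count of channel genes with a promoter peak, a mean of 27 over the 2 libraries, was 25 with a 500 bp window, 26 with both lists held to their 73221 strongest peaks, 26 with peaks counted only for the nearest start (a choice made after seeing the data), 28 with the TSS of all transcripts and 29 with the longer list. Median distal density, 4.58 per 100 kb, moved to 7.37 with the longer list (4.23 over all genes) and to 2.70 when each peak went only to the nearest start (0.815 over all genes), and stayed above that of all genes in both. It was 5.05 with a 50 kb flank (2.92 over all genes) and 5.36 with no flank (0 over all genes). The median promoter signal of 1.70 moved to 1.59 with the 500 bp window. Without replicate 1 and without replicate 2, the count with a promoter peak was 26 and 28, the median signal 1.63 and 1.77, the density 5.59 and 3.58, and the share of peaks found in both libraries 53.7% and 81.2%. Under an overlap of 50% of both peaks that mean share was 54.7%, against 67.4% with 1 bp. For single genes, 32 of 61 values moved by more than the spread between libraries with the longer list, and 1 of 59 with equal numbers of peaks. Of the 36 densities, 16 moved with the nearest start only, 13 with no flank and 10 with a 50 kb flank. No paired analysis was possible because there is a single group. Limits are the 2 libraries, the unknown depth and signal scale, 4 genes with a promoter peak in the main list of 1 library only, and peaks of the CAST parent that a C57BL/6J reference can miss.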
